A study of Mus musculus with 24 samples.

Results

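Open chromatin was compared between 2 cartilages of the E14.5 mouse embryo, Meckel's cartilage (MC), the rod that shapes the lower jaw, and the cartilage of the forelimb (FL). The comparison rests on 6 of the 24 samples of the series, the 3 MC and 3 FL ATAC-seq libraries for which the authors deposited a peak list per replicate. All 6 come from wild-type C57BL/6 embryos, and no group carries an allele or a treatment. The MC rods and the forelimbs, freed of surrounding connective tissue, were dissected and digested to single cells with the same enzymes, and the source is named as chondrocytes. Whether a replicate is 1 embryo, a litter or a pool is not stated, so the spread between lists may be partly technical. ATAC-seq marks DNA that a transposase can reach. A peak list holds the stretches where such cuts pile up.

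Chondrocytes form when the transcription factor Sox9, with Sox5 and Sox6, opens and activates the genes of the cartilage matrix, such as Col2a1 and Acan. Jaw chondrocytes descend from cranial neural crest, which is free of Hox expression in the first arch, and limb chondrocytes from lateral plate mesoderm, where Hox and T-box factors set position. Both make much the same matrix, while their regulatory DNA carries the history of their origin. Promoters are open in most cell types, and distal elements differ more between cell types.

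The MC lists held 54192, 43205 and 49872 peaks in replicates 1, 2 and 3 and covered 44.6, 43.9 and 46.7 Mb. The FL lists held 56039, 70636 and 47152 peaks over 40.7, 53.0 and 43.4 Mb. Read depth is unknown, so the length of each list stands in for it. Every listed peak has an authors' score just over 200 or higher, and what falls below that is unseen. MC replicate 1 stood apart: 29.6% of its regions were in no other list, against 9.96% to 22.7% in the other lists, and its score ranks correlated less with MC replicates 2 and 3 (0.777 and 0.794) than those did with each other (0.841). Pairs of an MC and an FL list ran from 0.765 to 0.833 and pairs of FL lists from 0.826 to 0.856. The ranges within and across tissues thus overlapped. The summed cover of 9 chondrocyte markers was 52.9 to 64.4 kb in MC and 38.5 to 48.7 kb in FL. The starts of Acan, Col9a1, Col11a2 and Hapln1 were open in all 6 lists. Markers of other cells were present too. For 8 fibroblast and perichondrium markers the sum was 39.1 to 43.1 kb in MC and 39.3 to 41.2 kb in FL. For 7 endothelial markers it was 36.9 to 39.9 kb in MC and 37.1 to 42.35 kb in FL. In FL these ranges overlapped that of the chondrocyte markers, so the sums do not show which cell type prevailed. The sum of 7 neuron markers was 15.3 to 19.5 kb in MC and 22.5 to 25.3 kb in FL. That of 6 blood and macrophage markers was 17.2 to 17.7 against 20.1 to 26.3 kb, with Gata1 and Hbb-bs at 0 in every list. Ptprc, with a domain of 713.1 kb, was the largest part of it (12.2, 8.99 and 10.9 against 17.7, 15.0 and 20.0 kb). Spi1 went the other way (4.58, 4.25 and 3.91 against 1.15, 1.60 and 2.69 kb), and Csf1r and Tal1 overlapped between tissues. Schwann cell markers reached 16.2 and 11.7 kb in MC replicates 2 and 3 through Sox10, and stayed at 4.42 to 5.42 kb in the other 4 lists. In such bulk libraries a locus open in fewer cells and a locus less open per cell cannot be told apart.

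Gene starts were read first as open or closed, a start being open when a peak lay within 1 kb of it. Of 17274 genes with a placed start, 9838 were open in every list and 5274 in none. The tissues were fully apart (open in 3 lists of one and 0 of the other) at 18 genes in MC (0.104% of the genes) and 35 in FL (0.203%). These classes carry no test, since 3 lists against 3 cannot reach an exact p under 0.1. The 18 MC genes included Matn1, a cartilage matrix adaptor, Ifitm5, a membrane protein of bone-forming cells, Tfap2e, an AP-2 transcription factor, and Tnni1, a slow-muscle troponin. Also among them were Jph4, Qrfp, Slc26a1, Aqp7, Fam181a, Lrfn3, Prr29, Ccer2 and Lypd9. The 35 FL genes held 5 Hox genes (Hoxa3, Hoxa7, Hoxa9, Hoxa10 and Hoxd10), the small leucine-rich proteoglycan Ogn, the basement membrane protein Nid1, the collagen Col6a6 and the cytokine Il33. Pdcd1, Akr1b8, Pdzk1ip1, Npy5r, Rsad2, Cntnap3 and Dcdc2c also belonged to it. Without 1 list at a time the counts were 23 to 63 in MC and 42 to 74 in FL, and with the same number of top peaks from every list 30 and 22. Most of these peaks were modest. Within its list, the peak at the Matn1 start stood at percentile 39.7, 4.95 and 22.0 of scores in MC replicates 1 to 3, that at Ifitm5 at 23.7, 21.2 and 12.8, and that at Tfap2e at 54.5, 57.2 and 55.0. In FL replicates 1 to 3 the peak at the Ogn start stood at 57.5, 73.5 and 29.0, that at Il33 at 27.1, 60.5 and 43.6, and that at Nid1 at 27.4, 8.55 and 11.6.

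The 250 bases before the start are shown for 3 genes of each class, chosen after their values were seen: Tfap2e as the MC start that limma also called by cover, and the others as matrix, bone or signalling genes outside Hox. The sequences are RefSeq's, of GRCm38.p6 (mm10), written 5′ to 3′ on the gene's strand. Capitals mark a match, on either strand, to CANATG, a form of the E-box bound by basic helix-loop-helix factors (Tfap2e and Ifitm5), to TGTGGT, the RUNX core (Matn1), or to GGAATG, the TEAD core (Ogn, Il33 and Nid1). Not every match is marked: GGAATG was also found before Tfap2e, and TGTGGT and CANATG before Ogn. They lie at chr4:126736270-126736519 (minus strand), chr7:140950244-140950493 (minus), chr4:130944135-130944384 (plus), chr13:49607765-49608014 (plus), chr19:29924863-29925112 (plus) and chr13:13437352-13437601 (plus).
Tfap2e: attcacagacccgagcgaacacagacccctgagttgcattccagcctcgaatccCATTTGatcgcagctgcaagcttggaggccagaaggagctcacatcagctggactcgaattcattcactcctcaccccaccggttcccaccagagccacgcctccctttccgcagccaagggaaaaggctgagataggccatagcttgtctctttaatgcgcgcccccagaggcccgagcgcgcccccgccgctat
Ifitm5: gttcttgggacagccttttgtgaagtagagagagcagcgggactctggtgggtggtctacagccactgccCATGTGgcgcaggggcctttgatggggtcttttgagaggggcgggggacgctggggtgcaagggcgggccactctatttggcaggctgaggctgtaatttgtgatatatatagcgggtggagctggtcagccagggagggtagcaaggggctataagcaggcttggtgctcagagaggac
Matn1: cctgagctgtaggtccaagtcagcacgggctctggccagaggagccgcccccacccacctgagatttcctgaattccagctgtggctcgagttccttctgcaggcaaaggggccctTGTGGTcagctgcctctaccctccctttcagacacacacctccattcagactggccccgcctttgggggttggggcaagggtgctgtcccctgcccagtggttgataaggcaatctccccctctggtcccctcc
Ogn: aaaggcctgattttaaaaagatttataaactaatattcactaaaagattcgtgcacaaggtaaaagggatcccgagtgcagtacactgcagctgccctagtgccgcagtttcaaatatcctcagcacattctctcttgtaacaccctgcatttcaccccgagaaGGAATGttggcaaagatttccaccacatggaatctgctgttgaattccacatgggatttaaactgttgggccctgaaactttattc
Il33: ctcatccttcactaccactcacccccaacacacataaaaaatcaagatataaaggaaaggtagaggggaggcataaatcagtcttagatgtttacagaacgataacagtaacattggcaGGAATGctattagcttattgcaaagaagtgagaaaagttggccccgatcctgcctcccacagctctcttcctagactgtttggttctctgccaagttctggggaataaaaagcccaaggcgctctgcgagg
Nid1: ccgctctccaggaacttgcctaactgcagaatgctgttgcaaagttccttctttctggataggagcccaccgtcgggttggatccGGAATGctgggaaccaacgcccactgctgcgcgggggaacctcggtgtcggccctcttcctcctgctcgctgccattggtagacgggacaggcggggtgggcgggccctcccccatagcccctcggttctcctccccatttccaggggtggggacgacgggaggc
A peak reached into these 250 bases in 3 MC lists for Tfap2e and in 1 each for Ifitm5 and Matn1, and in 2 FL lists for Ogn and 3 each for Il33 and Nid1; the other peaks lay elsewhere within 1 kb.

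Of 16 motifs searched on both strands, where neighbouring matches may share letters, GGAATG was found before 11 of 35 FL starts (31.4%) and 2 of 18 MC starts (11.1%), against 11.6% of 21045 promoter windows of the same length. Iqcj and Iqschfp share 1 start and are both in the 11. Hoxa9, Htr1a and Fam209 are in the 11 as well, although no FL list had a peak reaching into their 250 bases. Among the 16 motifs GGAATG had the widest gap in percentage points between FL starts and all windows. Col6a6, a collagen start of the FL class not shown above, had no match to it. TGTGGT was found before 5 of 18 MC starts (27.8%) and 8 of 35 FL starts (22.9%), against 12.2% of all windows. CANATG was found in 44.4% of the MC, 28.6% of the FL and 30.1% of all windows. GGGCGG, the SP and KLF box of housekeeping promoters, was in 38.9% of the MC, 31.4% of the FL and 43.1% of all windows, and in 59.6% of those whose gene was open in every list. These shares rest on few genes and carry no test.

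Genes were then compared by cover, the kb of peaks in a gene's domain (its span, and the flanking DNA nearer to it than to another gene, up to 1 Mb). After scaling all lists to an equal total, cover was tested on log2(kb + 0.5) with limma over 16132 genes. Limma called 9 genes at an adjusted p of 0.05 (0.0558% of those tested), 4 higher in MC (0.0248%) and 5 higher in FL (0.031%). Folds are not given where a tissue is listed at 0 in every replicate, and log2 differences there depend on the added 0.5 kb. The SE and limma adjusted p of such genes depend on it as well, and the lists at 0 show no spread of their own.

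Ucp3, a mitochondrial carrier of the uncoupling protein family (mm10, 7:100472991-100486432), covered 2.27, 1.63 and 1.66 kb in MC replicates 1 to 3 and was listed at 0 in every FL list (log2 difference 2.22 ± 0.20 SE; limma adjusted p 0.0276). Tfap2e (4:126716003-126736269) covered 1.07, 1.75 and 1.20 kb in MC and 0 in FL (1.86 ± 0.21; limma adjusted p 0.0472), so no FL list held a peak anywhere in its domain. Palm, which encodes the membrane-shaping protein paralemmin (10:79793572-79820915), covered 3.53, 5.94 and 2.95 kb in the MC lists and 0.425, 0.356 and 0.268 kb in the FL lists, so the lowest MC list lay far above the highest FL list (2.40 ± 0.27; limma adjusted p 0.0472). Dsg3, a desmosomal cadherin of stratified epithelia (18:20510274-20541310), covered 2.71, 1.43 and 1.60 kb in MC and 0 in FL (2.23 ± 0.24; limma adjusted p 0.0472). The summed cover of 8 epithelial markers, Dsg3 among them, was 15.4 to 16.2 kb in MC and 11.5 to 17.6 kb in FL. Epcam covered 4.13, 3.27 and 3.98 kb in the MC lists and 5.03, 4.20 and 4.39 kb in the FL lists, while Krt5 was at 0 in 5 of the 6 lists, and the part of epithelial cells in the Dsg3 difference was not tested.

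On the forelimb side, Impg2, a proteoglycan named for the matrix between photoreceptors (16:56203839-56273753), was at 0 in every MC list and covered 3.09, 2.75 and 2.17 kb in FL (log2 difference -2.65 ± 0.20 SE; limma adjusted p 0.0211). Zpld1, a zona pellucida domain protein on the same chromosome, covered 2.10, 1.51 and 1.76 kb in the MC lists and 7.94, 6.72 and 8.54 kb in the FL lists (-1.85 ± 0.21; limma adjusted p 0.0472). Its domain is 1343 kb, among the longest. After the centring by domain length described further on, the difference of Zpld1 was -1.29. Hsd11b1, the enzyme that regenerates active glucocorticoid, was at 0 in MC and at 2.13, 1.10 and 1.96 kb in FL (-2.12 ± 0.24; limma adjusted p 0.0472). Gm1322, a predicted gene, was at 0 in MC and at 1.05, 1.03 and 1.48 kb in FL (-1.74 ± 0.20; limma adjusted p 0.0472). Its domain of 336.7 kb is in the same long group, and its difference after centring was -1.53. Hoxa10 was the only called gene of a patterning list: 0 in MC and 2.22, 3.82 and 2.19 kb in FL (-2.66 ± 0.24; limma adjusted p 0.0276). All 9 kept their sign in every alternative that fitted them, though at a gene listed at 0 in a whole tissue it could hardly turn. Limma still called Gm1322 in 3 of 17 alternatives, Zpld1 in 4 of 18 and Tfap2e in 5 of 16. Impg2 and Hoxa10 were called most often, in 9 of 18 each. Without any 1 of the lists other than MC replicate 1 limma called 0 genes. Without MC replicate 1 it called 6 higher in MC and 7 higher in FL. With the same number of top peaks from every list it called 26 and 10.

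**Figure D1:**
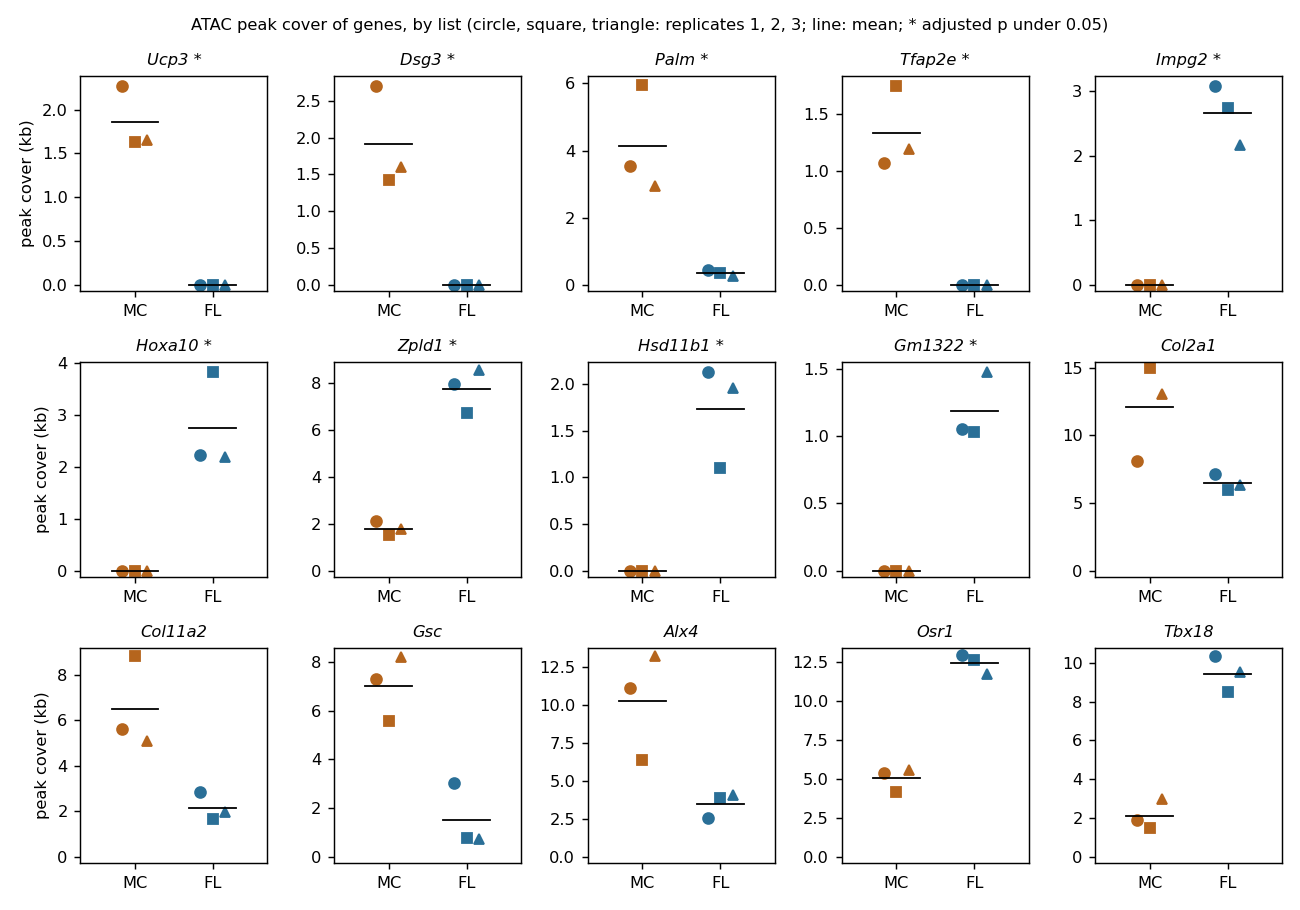
Scaled peak cover in kb (y axis, own scale in each panel) in the 3 MC and 3 FL lists for the 9 genes called by limma (asterisk) and 6 others. Circles, squares and triangles are replicates 1, 2 and 3 and lines are means; in every panel the MC and FL points do not overlap, and Ucp3, Dsg3 and Tfap2e sit at 0 in FL.

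Just past the threshold, genes with no overlap between tissues included, with more in MC, Carmil2, an actin regulator (2.23, 2.55 and 3.21 kb against 0.397, 0.329 and 0 kb in FL), and Cpne5, a calcium-dependent membrane-binding copine (5.19, 6.89 and 6.49 against 0.982, 1.89 and 1.14 kb). The chromatin remodeller Chd5 (5.13, 4.98 and 4.14 against 0.492, 1.24 and 0.959 kb) and its neighbour Kcnab2, a potassium channel subunit (4.75, 3.13 and 3.36 against 0.972, 0.688 and 0.703 kb), lie side by side on chromosome 4. Their limma adjusted p was 0.0613 each. The others on the MC side were Gm7827, Pcnx3, Ccer2 and the glutamate receptor gene Grin2c (limma adjusted p 0.0561 to 0.065). On the FL side Steap4, a metalloreductase, covered 0.906, 0.783 and 0.939 kb in the MC lists and 6.73, 3.42 and 5.38 kb in the FL lists, and Ogn 0 in MC and 0.780, 0.809 and 1.03 kb in FL (limma adjusted p 0.0613 each). Gm11487, Hoxd10, Hoxa3, Nkx2-4 and Tbx18 completed that side (limma adjusted p 0.0613 to 0.065). Of all genes tested, 2250 (13.9%) had an unadjusted p under 0.05. Lists did not overlap for 1572 genes with more cover in MC (9.74%) and 1484 with more in FL (9.2%). The median log2 difference over all genes was 0.03, and the counts for gene groups below are to be read against these shares.

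Cartilage matrix genes leaned to MC. Of 30 tested, none was called, 6 did not overlap with more cover in MC (20.0%) and 1 with more in FL (3.33%), and the median log2 difference was 0.23. Among 15 reference genes that MC share was higher, 26.7%, with 0 in FL and a median of 0.01. Col2a1, the fibril collagen of cartilage, covered 8.12, 15.0 and 13.1 kb in the MC lists and 7.14, 5.97 and 6.33 kb in the FL lists (0.81 ± 0.26; limma adjusted p 0.237). The lowest MC list lay only just above the highest FL list. Col11a2, which nucleates those fibrils, covered 5.61, 8.84 and 5.10 kb against 2.85, 1.66 and 1.98 kb (1.38 ± 0.28; limma adjusted p 0.121), so its lists were further apart. Chad, a matrix leucine-rich protein that binds collagen and cells, covered 1.72, 0.913 and 1.41 kb against 0.317, 0.898 and 0 kb. Snorc, a chondrocyte proteoglycan, covered 2.05, 2.52 and 3.54 kb against 1.57, 1.67 and 0.966 kb. Mia and Col27a1 were the other 2 with more in MC, and Matn2 was the 1 with more in FL. Acan, the main proteoglycan, overlapped between tissues, with 6.44, 6.86 and 5.33 kb in the MC lists and 5.88, 5.72 and 3.62 kb in the FL lists (0.29 ± 0.24; limma adjusted p 0.674). Matn1, whose start was open in MC alone, overlapped when its whole domain was counted, with 7.35, 5.69 and 5.14 kb in the MC lists and 2.45, 5.62 and 2.45 kb in the FL lists. FL replicate 2 was above MC replicate 3.

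Regulators of chondrogenesis leaned to FL in cover as measured, but not after the centring by domain length described further on. Of 15 tested, 0 had more cover in MC without overlap and 5 had more in FL (33.3%), with a median of -0.30. Those 5 were Trps1, a GATA-type repressor (11.5, 8.68 and 14.45 kb in the MC lists and 21.2, 15.8 and 16.4 kb in the FL lists), the hedgehog effector Gli3 (21.0, 16.2 and 20.0 against 23.7, 29.0 and 32.3 kb), Sox5 (16.6, 13.9 and 19.3 against 23.8, 22.7 and 24.1 kb), Sox6 and the zinc finger repressor Zbtb20. None was called (limma adjusted p 0.309 to 0.323). Sox9 itself covered 11.2, 11.6 and 8.36 kb in the MC lists and 13.9, 15.2 and 9.96 kb in the FL lists, and the lists overlapped (-0.30 ± 0.24; limma adjusted p 0.65). Those 5 genes have domains of 816.2 kb (Gli3) to 1615 kb (Trps1), all within the group of longest domains described further on. In that group 32.7% of all genes tested had more cover in FL without overlap. After centring, the median of the regulators was 0.07.

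Genes of hypertrophy and bone, through which cartilage matures, had a median of 0.30, with 2 of 20 not overlapping in MC and 3 in FL. Runx3, which drives chondrocyte maturation together with Runx2, covered 11.6, 16.8 and 10.5 kb in the MC lists and 4.02, 7.76 and 5.80 kb in the FL lists (1.10 ± 0.29; limma adjusted p 0.164). Runx2 overlapped, with 14.52, 7.85 and 10.98 kb in the MC lists and 12.9, 11.3 and 11.5 kb in the FL lists (-0.14 ± 0.25; limma adjusted p 0.883). The forkhead gene Foxa2, which acts in hypertrophy, covered 4.59, 5.83 and 6.43 kb in the MC lists and 12.3, 9.16 and 11.7 kb in the FL lists, and Phex, an osteoblast and osteocyte peptidase, 0, 0 and 0.271 kb against 1.53, 0.996 and 0.583 kb. Mef2c also had more in FL and Mef2d more in MC.

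Among perichondrial and fibroblast genes 5 of 20 did not overlap with more in MC (25%) and 4 with more in FL (20.0%), both above the shares over all genes, and the median was 0.02. Thy1, a surface marker of fibroblasts, covered 7.52, 3.70 and 3.51 kb in the MC lists and 1.51, 2.44 and 0.949 kb in the FL lists, and the matrix protein gene Fbln1 7.003, 5.04 and 4.71 against 1.60, 4.02 and 2.03 kb. The other 3 were Col5a1, Col6a1 and Pdgfrb. Dcn, a proteoglycan that binds fibrillar collagen, covered 2.79, 3.44 and 3.30 kb in the MC lists and 8.13, 6.86 and 5.99 kb in the FL lists (-1.02 ± 0.21; limma adjusted p 0.121), and Dpt, which marks fibroblasts, 2.27, 1.36 and 1.79 against 4.15, 5.11 and 2.91 kb. Col5a2 and Col14a1 stood with them. The 2 alpha chains of collagen V listed here thus leaned in opposite directions. Tendon genes had the lowest median outside Hox, -0.60, with 3 of 8 not overlapping, all with more in FL. They were Scx, the defining tendon factor (0, 0.567 and 0.395 kb in the MC lists and 1.02, 0.893 and 1.72 kb in the FL lists), Osr1 (5.40, 4.18 and 5.60 against 13, 12.7 and 11.8 kb; limma adjusted p 0.0915) and Thbs4 (1.83, 1.62 and 1.55 against 3.76, 4.40 and 4.26 kb; limma adjusted p 0.1). The other members tested overlapped between tissues: Mkx (-0.07), Egr1 (-0.11), Osr2 (0.20), Fmod (-0.57) and Tnc (-0.63). Tnmd, the late tendon marker, was at 0 in every list. The summed cover of the tendon markers Scx, Mkx and Tnmd overlapped too, with 6.29 to 8.48 kb in MC and 6.71 to 10.26 kb in FL.

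Regulators of jaw and cranial mesenchyme had 10 of 42 genes with more cover in MC without overlap (23.8%) and 3 with more in FL (7.14%), with a median of 0.26. Beyond Gsc, Pitx1 and Lhx6 (log2 differences 2.07, 1.74 and 1.20), the widest was Alx4, a homeobox gene of the frontonasal and limb mesenchyme, with 11.1, 6.33 and 13.2 kb in the MC lists and 2.52, 3.84 and 4.04 kb in the FL lists (1.40 ± 0.31; limma adjusted p 0.129). Dlx1 and Dlx6, which set position along the arch, differed by 0.94 each, with Dlx1 at 2.90, 2.06 and 2.92 kb in the MC lists and 1.10, 1.15 and 1.09 kb in the FL lists. Foxc2, Foxd2, Lhx8 and Msx1 made up the 10. Hand2 and Tfap2a were among those with more in FL, Hand2 with 10.7, 7.81 and 9.32 kb in the MC lists and 15.5, 13.1 and 17.8 kb in the FL lists. Tfap2e, which limma called higher in MC, and its relative Tfap2a, with 2.21, 3.47 and 2.14 kb in the MC lists and 4.34, 4.75 and 4.54 kb in the FL lists, thus leaned in opposite directions. The Hox list had a median of -1.06 (9 of 20 with more in FL) and the limb list outside Hox -0.24 (9 of 24 with more in FL).

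Signalling pathways were read by role. In the BMP and TGF-beta list 0 of 32 genes had more cover in MC without overlap and 8 had more in FL (25%), with a median of -0.08. They included the ligand Bmp2 (11.6, 3.81 and 10.99 kb in the MC lists and 16.3, 19.8 and 18.3 kb in the FL lists; -1.14 ± 0.39; limma adjusted p 0.26) and the type I receptor Bmpr1b (6.90, 2.92 and 6.31 against 8.42, 11.4 and 10.3 kb). The pathway target Id4 covered 5.28, 3.65 and 5.72 kb against 11.2, 9.79 and 9.57 kb (limma adjusted p 0.13), and the decoy receptor Bambi 5.94, 3.38 and 5.02 against 6.19, 6.36 and 7.64 kb. MC replicate 2 was the lowest of the lists for each of these 4 genes. Tgfb2, Tgfbr2, Ltbp1 and Inhba completed the 8.

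FGF genes leaned both ways. The receptors Fgfr3, which restrains chondrocyte proliferation (6.09, 6.39 and 11.3 kb in the MC lists and 2.43, 4.48 and 2.73 kb in the FL lists; 1.17 ± 0.31; limma adjusted p 0.166), Fgfr1 and Fgfrl1, and the inhibitor Spry4, had more in MC. The ligands Fgf2, Fgf9 (3.65, 4.35 and 5.24 against 6.88, 9.21 and 6.43 kb) and Fgf10 (6.53, 3.86 and 5.15 against 10.4, 8.72 and 10.1 kb) and the feedback inhibitors Dusp6 (8.44, 5.69 and 8.04 against 12.1, 12.4 and 12.8 kb) and Spred1 had more in FL. That makes 4 and 5 of 22 genes with no overlap, and none was called.

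Of 33 Wnt genes 4 had more in MC and 6 in FL without overlap. The joint ligand Wnt9a covered 10.2, 9.61 and 9.35 kb in the MC lists and 4.32, 6.11 and 7.13 kb in the FL lists, while the secreted antagonists Dkk1 (0.261, 1.67 and 0.485 against 3.26, 2.32 and 2.30 kb) and Dkk2 (6.66, 6.25 and 9.18 against 16.6, 12.2 and 13.1 kb) and the agonist Rspo3 had more in FL. In the hedgehog list Hhip, the pathway's decoy receptor, covered 3.17, 3.33 and 3.37 kb in the MC lists and 6.74, 7.14 and 8.98 kb in the FL lists (-1.09 ± 0.20; limma adjusted p 0.111), and Gli3 and Boc were the other 2 of 15 with no overlap. The Notch receptor Notch1 (9.70, 13.9 and 16.7 against 7.51, 8.93 and 7.29 kb) and the ligand Jag2 (3.61, 11.4 and 7.63 against 2.29, 2.84 and 3.14 kb) had more in MC, and the ligand Jag1 and the target Hey2 more in FL. For retinoic acid, the partner receptor Rxra covered 17.8, 26.3 and 26.5 kb in the MC lists and 11.9, 13.9 and 9.55 kb in the FL lists (0.96 ± 0.25; limma adjusted p 0.156). Rxrb and the degrading enzyme Cyp26b1 also had more in MC, and the receptor Rarb more in FL (14.7, 10.5 and 11.8 against 20.4, 16.4 and 21.4 kb).

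The difference in cover varied with domain length: longer domains had lower values of the log2 difference, MC minus FL, with a Spearman rho of -0.366 over 16132 genes. Genes are not independent, and all share the same 6 lists, so no p is given. Split into 10 groups of similar size by domain length, genes of the shortest group had a median difference of 0.13 and those of the longest, with domains of 274.2 to 3602 kb, -0.38. Lists did not overlap with more cover in FL for 2.36% of genes of the shortest group and 32.7% of the longest. For more cover in MC the shares were 11.9% and 1.92%. The rho was between -0.276 (without MC replicate 2) and -0.417 (without MC replicate 1) when each list was left out, and -0.295 with the same number of top peaks from every list. With each list's log2 values centred within 20 bins of domain length, a step added after the data were seen, the limma calls were 3 with more in MC and 5 with more in FL.

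By list, the longest-domain group took 28.3%, 22.8% and 26.9% of cover in MC replicates 1 to 3 and 33.4%, 33.7% and 32.1% in FL. Every FL list was above every MC list, by a mean of 7.07 points (two-sided exact permutation p 0.1, the smallest 3 lists against 3 allow; adjusted over 8 library values 0.267). The 50% of genes with the shortest domains took 24.4%, 28.7% and 26.5% in MC and 21.5%, 20.4% and 23.0% in FL (exact permutation p 0.1). Peaks outside genes made up 33.9%, 30.6% and 34.2% of the MC lists and 37.4%, 39.1% and 35.6% of the FL lists (exact permutation p 0.1). Peaks with a start within 1 kb did not separate the tissues (22.0%, 26.6% and 23.9% against 21.4%, 17.6% and 24.3%; exact permutation p 0.3), nor did the median peak width (709, 886 and 779 bp against 593, 613 and 779 bp; exact permutation p 0.3). The relation between peak score and GC content over 9157 open promoter regions overlapped as well, with a Spearman rho of 0.117, 0.237 and 0.208 in MC and 0.173, 0.274 and 0.150 in FL (exact permutation p 0.9).

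**Figure D2:**
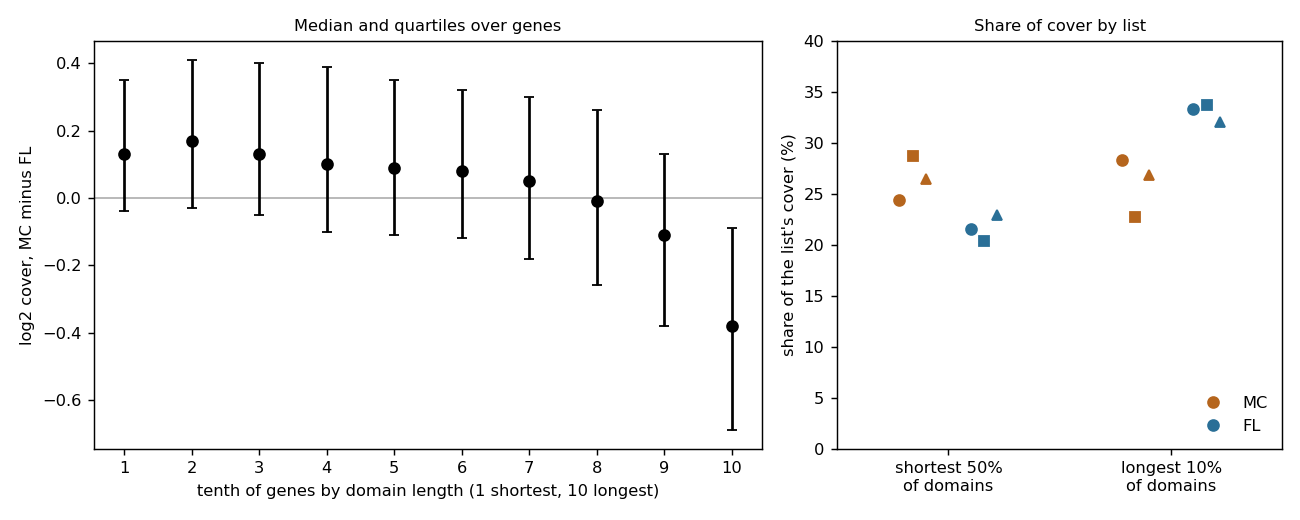
Left, median and quartiles over genes of the log2 difference in cover, MC minus FL, in 10 groups of genes by domain length; the median goes from 0.13 in the shortest to -0.38 in the longest. Right, share of each list's cover (percent) in the 50% of genes with the shortest domains and in the longest-domain group, with circles, squares and triangles for replicates 1, 2 and 3; the MC and FL points do not overlap in either.

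Guidance and adhesion genes have long domains, with medians of 657 and 1279 kb. Axon guidance genes (Eph receptors, semaphorins, slits and netrins), which also steer mesenchymal cells, had 15 of 30 members with more cover in FL and no overlap (50.0%), none in MC, and a median of -0.45. After centring by domain length the median was 0.07. Slit2, a secreted repellent, covered 5.49, 5.31 and 8.21 kb in the MC lists and 16.4, 12.1 and 11.2 kb in the FL lists (-1.01, or -0.45 centred; limma adjusted p 0.148 before centring), the netrin receptor Dcc 2.86, 0.723 and 1.81 against 4.22, 4.11 and 6.74 kb, and Sema3e 3.78, 1.39 and 3.00 against 6.99, 4.19 and 6.94 kb. Cadherins and other adhesion genes had 13 of 28 with more in FL (46.4%), none in MC, and a median of -0.43, or 0.00 centred. Cdh10, a classical cadherin, covered 1.94, 1.16 and 1.86 kb in the MC lists and 6.17, 4.83 and 5.27 kb in the FL lists (-1.47, or -0.91 centred; limma adjusted p 0.0901 before centring), the adhesion receptor Adgrl3 7.59, 4.91 and 12.4 against 18.0, 15.3 and 18.5 kb, and the collagen receptor Itga1 5.68, 2.39 and 5.98 against 12.4, 8.75 and 9.91 kb. The summed neuron markers, 15.3 to 19.5 kb in MC and 22.5 to 25.3 kb in FL, did not overlap either. Among them Tubb3 went the other way, with 1.53, 1.52 and 1.75 kb in the MC lists and 0.862, 0.643 and 0.787 kb in the FL lists. Of 13 neuron genes, 2 did not overlap with more in MC and 3 with more in FL. The median of that list was -0.43, or -0.22 centred. The part of neurons in the guidance and adhesion values was not tested.

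After centring, the medians of some lists crossed 0 and those of others did not, whatever the size of the shift. Chondrogenic regulators went from -0.30 to 0.07, limb regulators outside Hox from -0.24 to 0.03 and BMP and TGF-beta genes from -0.08 to 0.05. Cartilage matrix (0.23 and 0.26), hypertrophy and bone (0.30 and 0.29), jaw regulators (0.26 and 0.37), tendon (-0.60 and -0.40) and Hox genes (-1.06 and -1.19) kept their sign. Sox5, Zbtb20, Sox6, Gli3, Sox9 and Runx2 had log2 differences of 0.06, 0.07, 0.09, 0.00, 0.26 and 0.28 after centring, so their lean to FL did not remain. Jag1 (0.00), Trps1 (-0.06), Mef2c (-0.04), Bambi (-0.07), Rspo3 (-0.07) and Rarb (-0.08), all between -0.48 and -0.64 before, came to near 0. Differences below 0 remained, each smaller than before, for Bmp2 (-1.14 before and -0.58 after), Id4 (-1.01 and -0.45), Osr1 (-1.23 and -0.67), Foxa2 (-0.92 and -0.51), Tbx15 (-1.45 and -1.04), Tbx18 (-1.96 and -1.55), Dkk1 (-1.40 and -1.29) and Hhip (-1.09 and -0.68).

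**Figure D3:**
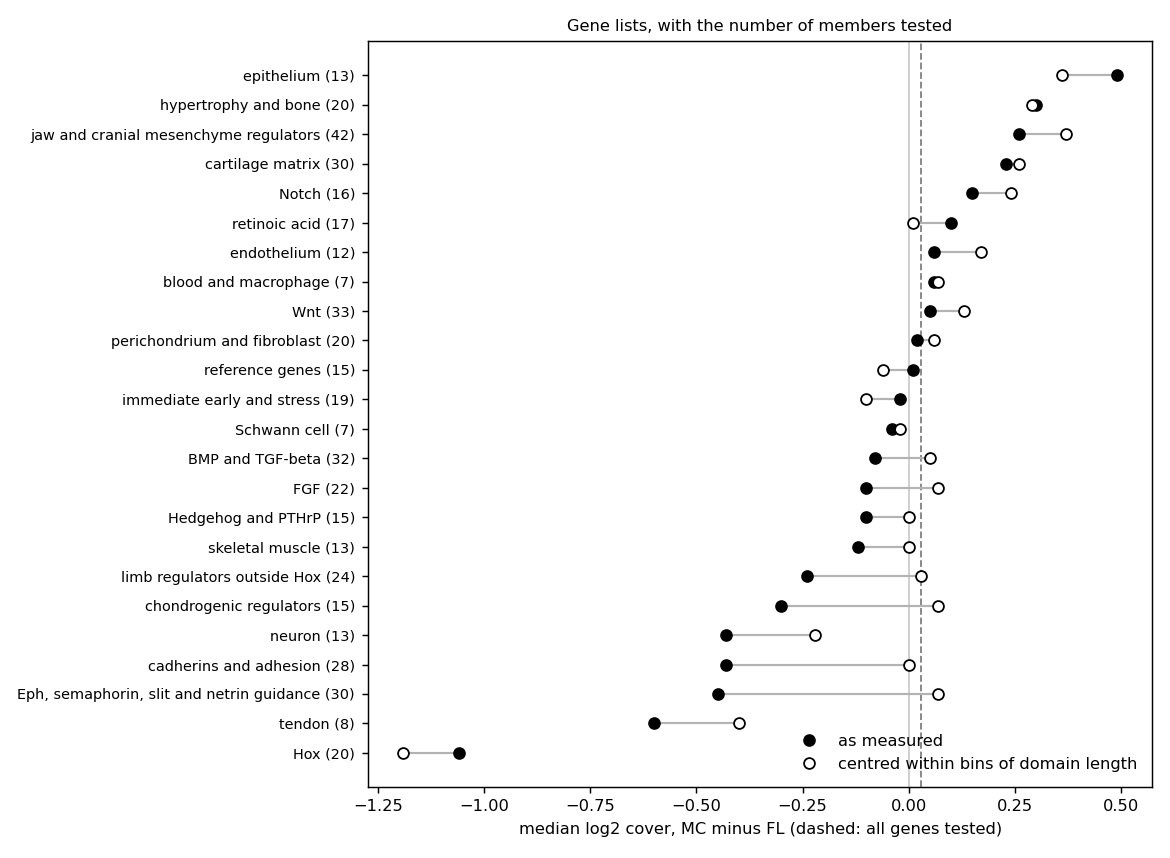
Median log2 difference in cover, MC minus FL (x axis), for 24 gene lists, with the number of members tested in parentheses; filled points are as measured, open points after centring within bins of domain length, and the dashed line is the median of all genes, 0.03. Guidance, adhesion and chondrogenic regulator lists move to near 0, and the Hox and tendon lists stay below it.

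Lists of other cell types were small. Of 13 muscle genes the determination factor Myod1 had more cover in MC (2.44, 1.72 and 2.86 kb against 0, 0.538 and 0.831 kb; 1.66 ± 0.37; limma adjusted p 0.132), as did the muscle creatine kinase Ckm (0.628, 2.15 and 0.606 against 0.590, 0.426 and 0.503 kb), and the embryonic myosin Myh3 had more in FL. The macrophage factor Spi1 covered 4.58, 4.25 and 3.91 kb in the MC lists and 1.15, 1.60 and 2.69 kb in the FL lists, while the leukocyte gene Ptprc leaned the other way (12.2, 8.99 and 10.9 against 17.7, 15.0 and 20.0 kb). The endothelial genes Egfl7 and Emcn also split, with log2 differences of 1.16 and -1.11. Among genes induced by dissociation and stress Fosl1 had more in MC (2.36, 2.10 and 1.66 against 0.401, 0.341 and 1.12 kb), as did Jund (4.55, 5.17 and 5.60 against 4.42, 3.79 and 4.52 kb), and Myc more in FL. Of 15 reference genes 4 had more in MC without overlap, Actb (7.79, 7.48 and 7.06 against 2.99, 6.89 and 4.70 kb), Gapdh (3.15, 3.97 and 3.43 against 2.65, 2.50 and 2.95 kb), Hprt and Tuba1b, all with domains of 73.3 kb or less, and their list's median was 0.01. With peaks counted in place of kb, the difference of Hprt was -0.09.

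Regions were compared next, after merging the peaks of the 6 lists into 113698 regions. Of these, 20047 (17.6%) were called in every list, 586 in the 3 MC lists alone (MC-only, 0.515%) and 2564 in the 3 FL lists alone (FL-only, 2.26%). FL-only regions lay farther from genes: a median of 116 kb from a start, against 37.9 kb for MC-only regions and 45.3 kb for all regions. Outside genes lay 55.0% of FL-only, 38.4% of MC-only and 41.1% of all regions. The authors' combined E12.5 ATAC list, which is of MC alone with no E12.5 forelimb list beside it here, overlapped 50.2% of MC-only, 12.48% of FL-only and 36.8% of all regions, so it bears on tissue and stage together. The counts depend on list length and on each list: without 1 list at a time MC-only regions numbered 726 to 1740 and FL-only regions 3156 to 5983, and the same number of top peaks gave 790 and 1596.

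By position, FL-only regions thinned as genes became dense. In 1 Mb windows with no gene they made up 4.96% of regions, in windows of 1 to 5 genes 3.82%, of 6 to 15 genes 1.97%, of 16 to 30 genes 0.794% and of over 30 genes 0.335%. MC-only regions made up 0.537%, 0.393%, 0.486%, 0.577% and 0.963%, so in the densest windows they outnumbered FL-only regions (89 and 31). The windows with the most MC-only regions were the 2 neighbours at 10:80000001-82000000, with 10 and 7. They hold 54 and 51 genes, among them the kinase gene Stk11, the ephrin Efna2, the G protein subunit gene Gng7 and the kinase gene Map2k2. Next were the window of Alx4 and Ext2 at 2:93000001-94000000, with 6, a gene-dense window at 17:56000001-57000000 with 6, and the window of Gsc and Dicer1 at 12:104000001-105000000 with 5. FL-only regions clustered in windows of few genes: 8 each around Sema3c and Cd36 (5:17000001-18000000), Xrcc4 and Atp6ap1l (13:90000001-91000000) and Prlr and Rai14 (15:10000001-11000000), and 7 each around Tll1, a BMP-activating protease (8:64000001-65000000), Rnd3 (2:51000001-52000000), Tenm4 (7:96000001-97000000) and Plekhf2 (4:10000001-11000000). In the window of Sema3c they were 20.0% of its 40 regions.

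By chromosome, the FL-only share ran from 1.25% of regions on chromosome 11 to 3.20% on chromosome 3. MC-only shares ran from 0.337% on chromosome 13 to 0.812% on chromosome 17 among autosomes. The X chromosome had 1 MC-only and 22 FL-only of 1543 regions, and its share of cover did not separate the tissues (1.44%, 1.54% and 1.89% in MC and 1.90%, 1.82% and 1.75% in FL; exact permutation p 0.3).

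**Figure D4:**
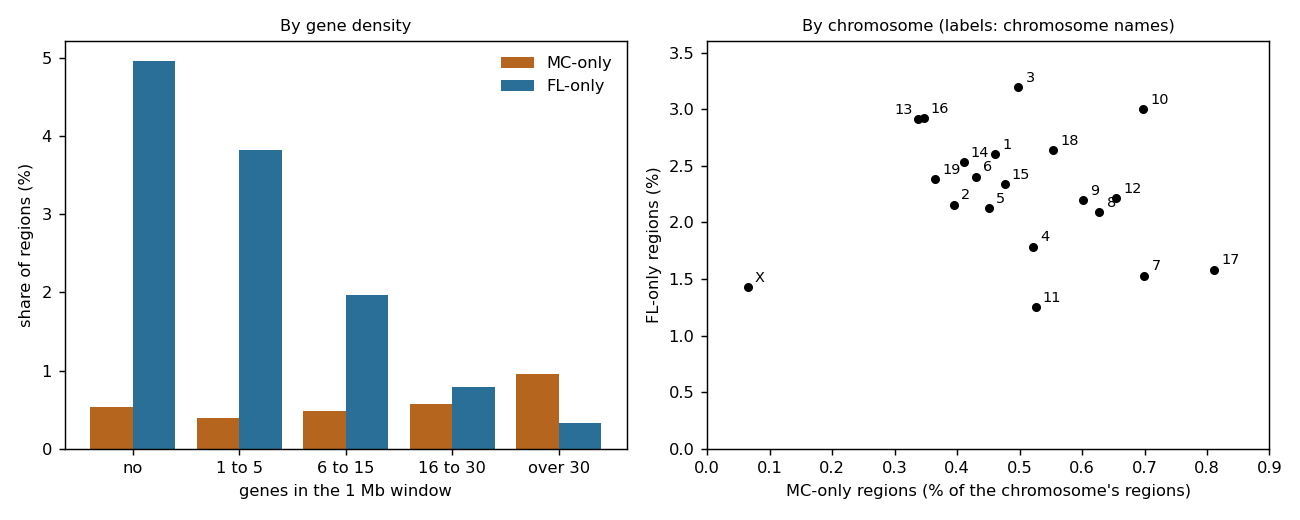
Left, MC-only and FL-only regions as a percent of all regions in 1 Mb windows grouped by the number of genes they hold; FL-only shares go from 4.96% with no gene to 0.335% with over 30. Right, the same 2 shares for each chromosome, labelled by name; X lies apart with 1 MC-only region.

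Among MC-only regions, scores were mostly in the lower part of each list: the median of a region's lowest percentile was 19.3, and 24.6 for FL-only regions. Past the best-ranked ones near Dicer1 and Ext2, a region inside Vit, which encodes a cartilage matrix protein with von Willebrand domains, lay at 17:78550055-78552542 and reached percentiles 75.5, 83.3 and 71.1 in MC replicates 1 to 3. It was absent from the authors' combined E12.5 list. Of their combined lists of the histone mark H3K27ac, it overlapped that of FL and not that of MC. By class, the H3K27ac lists of MC and FL overlapped 71.8% and 65.5% of MC-only regions. For FL-only regions the shares were 39.35% and 44.0%, and for all regions 57.6% and 56.2%. Other MC-only regions lay near Pik3cg (12:32138165-32139406, 74.6, 65.0 and 67.5), near Colec10 (15:54386326-54387542, 88.9, 77.8 and 63.7) and inside the chloride channel gene Clic5 (17:44254077-44255566, 69.8, 64.6 and 61.6). FL-only regions of high rank lay near Gbp5 (3:142463008-142464988, 89.9, 81.2 and 87.4 in FL replicates 1 to 3), inside Pam, an enzyme that amidates peptides (1:98079363-98080581, 86.7, 80.1 and 79.4), inside Sugct, a metabolic enzyme gene (13:17296419-17298054, 91.1, 79.1 and 78.0), inside the ETS gene Etv6 (6:134160757-134162167, 77.3, 86.0 and 78.5) and 253 kb from Gja1, which encodes the gap junction protein connexin 43 (10:56642989-56644643, 83.3, 78.0 and 77.1).

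Regions called in all 6 lists were compared by rank, which presence or absence cannot do. Scores were ranked within each list over the 20047 common regions and tested as normal scores with limma. No region passed an adjusted p of 0.05 (0 of 20047, 0.0%), and 1717 (8.56%) had an unadjusted p under 0.05. The ranks of the tissues did not overlap for 1302 regions with MC above FL (6.49%) and 1382 with FL above MC (6.89%). Every alternative run also gave 0 limma calls.

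The smallest p on the FL side belonged to a region inside Rarb (14:16483297-16484650), at percentile 2.18, 1.28 and 3.49 in MC replicates 1 to 3 and 46.1, 50.7 and 56.3 in FL (limma adjusted p 0.146). A region inside Hoxc6 (15:102998445-103000427) stood at 3.16, 0.908 and 0.614 in MC and 27.9, 33.4 and 35.8 in FL, but ranked by score per base its difference was 0.06 in the other direction. A region 301 kb from Sox6 (7:115169360-115171047) stood at 9.61, 5.39 and 7.97 against 56.7, 44.8 and 57.2, and one inside the glutamate receptor gene Grik1 (16:88111449-88113360) at 1.90, 17.7 and 3.90 against 68.5, 72.9 and 76.1. One inside Sh3rf1, a ubiquitin ligase gene (8:61390240-61392072), stood at 12.1, 5.72 and 1.55 against 63.4, 61.1 and 68.1.

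On the MC side a region near the histone demethylase gene Phf2, 21.4 kb away (13:48779544-48781083) stood at 64.0, 57.6 and 57.6 in MC and 2.49, 2.22 and 7.78 in FL (limma adjusted p 0.146). One inside Notch2 (3:98056003-98057491) stood at 59.3, 63.2 and 52.0 against 10.5, 5.27 and 3.04, and one 227 kb from Tle4, a corepressor gene (19:14220210-14221255), at 58.6, 49.9 and 58.1 against 13.4, 6.27 and 5.75. Regions near Npnt, an integrin ligand of basement membranes (3:132875521-132878283; 64.3, 51.6 and 55.8 against 11.1, 10.3 and 2.28), and 19.7 kb from Runx1 (16:92845226-92846288; 25.7, 29.3 and 42.2 against 4.32, 2.49 and 5.23) were of the same kind. One inside Gata3 (2:9880580-9882782) stood at 23.9, 24.9 and 26.8 against 3.05, 4.21 and 2.42, but by the authors' -log10 p its difference was -0.11. Away from starts the ranks varied with domain length too. With common regions split into 5 groups by domain length, ranks in the shortest group (1147 regions away from starts) did not overlap with MC above FL for 8.72% and with FL above MC for 2.35%. In the longest group (2988 regions) the shares were 5.92% and 11.01%. Among the 9367 regions with a start within 1 kb they were 5.88% and 5.75%.

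**Figure D5:**
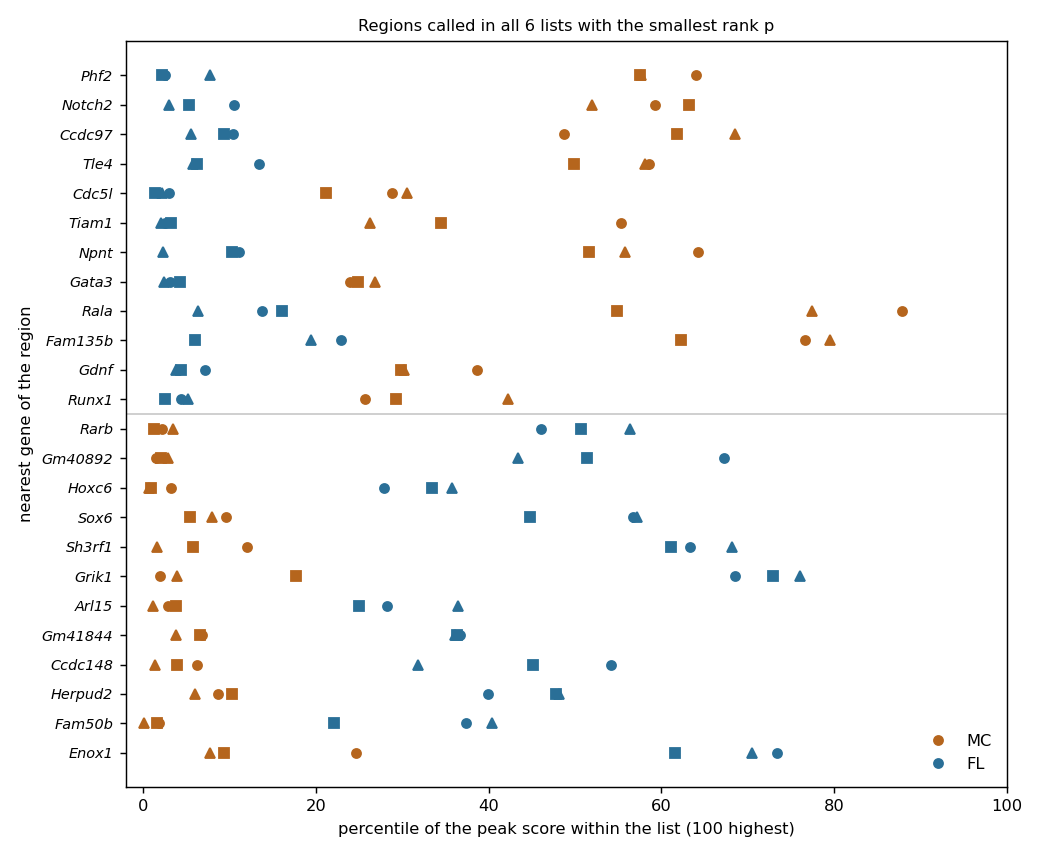
Percentile of the score among the 20047 common regions (x axis, 100 highest) in each list for the 12 regions of smallest p higher in MC (top) and higher in FL (bottom), named by nearest gene. Brown is MC and blue FL, with circles, squares and triangles for replicates 1, 2 and 3; within each row the tissues do not overlap, although no region passed the adjusted threshold.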

How the data were processed

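Peaks were called for each replicate with Genrich on mm10 after Trim Galore, Bowtie2 and SAMtools, per the submitters' processing notes, whose versions are not given in the sources used here. The deposited lists give each peak a score on its own list's scale, a -log10 p and a summit offset, and the deposited combined H3K27ac lists a signal per peak, used here only for overlap. Scores served for ranks inside each list alone. Depth and duplicate rates are unknown.

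Peaks of the 6 lists on chromosomes 1 to 19 and X were merged where they overlapped by 1 bp or more. Genes and starts are RefSeq's for GRCm38.p6 (21631 protein-coding genes, 21045 starts of 17274 genes). Each base was given to the smallest gene span holding it, or else to the nearest gene within 1 Mb. Cover per gene was scaled to equal totals and tested as log2(kb + 0.5) with limma 3.58.1 (R 4.3.3) where the mean was at least 0.3 kb, with Benjamini-Hochberg adjustment over all genes. Ranks were tested as normal scores with limma, and library values with exact permutation tests (scipy 1.17.1). Only the limma fits of cover and of ranks were checked on simulated data, with independent normal noise for each gene or region. Such noise differs from cover listed at 0 in a whole tissue.

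Named were the 12 genes each way of smallest p without overlap, up to 4 members per list of largest difference without overlap, the 12 best-ranked starts and regions of each class, the 12 regions each way of smallest p by rank, and Sox9, Col2a1, Acan, Runx2, Actb and Gapdh. Further members and starts were named after their values were seen. Members and lists were chosen with earlier results of these data known. Alternatives covered equal peak numbers, each list left out, pseudocount, filters, scaling, domain limits, a replicate block and the E12.5 lists. Motifs in regions were not analysed here.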

Additional observations from a re-analysis of the deposited data

How the results depend on the processing

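For genes called by limma (4 higher in MC, 5 higher in FL), the numbers were 26 and 10 with the same number of top peaks from every list, 18 and 21 with 0.1 kb added, 0 and 1 with 1 kb added, 1 and 2 over every gene with any cover, 7 and 6 at a mean of at least 1 kb, 23 and 44 with peaks counted per gene, and 0 and 0 with the E12.5 lists in the fit. They were 0 and 0 for cover away from starts, an alternative chosen after seeing the data, as was centring by domain length (3 and 5). Leaving out 1 list gave 0 to 6 in MC and 0 to 7 in FL. With replicate number as a block, limma called 0 and 0 genes and 0 regions; deviations of lists with the same number correlated at 0.066, 0.079 and 0.069, under 0.1, so the numbers were not taken to pair the lists, although each list correlated best with its own number. The rank comparison gave 0 to 0 calls in each direction.

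MC-only regions numbered 726 to 1740 and FL-only regions 3156 to 5983 when 1 list was left out, starts 23 to 63 and 42 to 74. A class defined by fewer lists is larger by construction. FL-only regions were 1596 with the same number of top peaks and 1050 with the best 30000. Requiring a list's peaks to cover at least 50% of a region, chosen after seeing the data, gave 831 MC-only and 1892 FL-only regions. Starts were 30 in MC and 22 in FL with the same number of top peaks. The order of starts, more in FL than in MC, thus turned with list length. Library values kept their direction in every alternative run, except that the relation of score and promoter GC had no alternative run.

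Centring by domain length turned the log2 difference of Gli3 (0.0), Sox5 (0.06), Zbtb20 (0.07), Sox6 (0.09), Sox9 (0.26) and Runx2 (0.28). Runx2 ranged from -0.34 to 0.08 when 1 list was left out (0.08 without MC replicate 2), and Hprt at -0.09 with peaks counted. The region in Gata3 was at -0.11 ranked by -log10 p and that in Hoxc6 at 0.06 ranked by score per length; the cause was not tested. Of the other results by gene or region, 2568 comparisons kept their direction and side of the threshold, 100 lost and 32 gained a call, and 94 moved by more than their spread. Requiring overlap with 50% of the shorter of peak and region gave the same 586 and 2564 regions, as it must by construction. Counts per chromosome have no value per list and were not run as one. Unknown depth limits every absence of a peak.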
